A study of Rattus norvegicus with 2 samples.

Results

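The genes described here are 10 genes of transsulfuration and of glutathione metabolism, out of 25399 in the deposited gene table: Mat2a, Cbs and Cth on the way from methionine to cysteine, Gclc, Gclm and Gss for glutathione synthesis, Chac1 for its breakdown, Gsr for its reduction, and Gpx1 and Gpx4 for its use against peroxides. They were chosen by symbol, and each of the 10 symbols matched 1 row. They were measured by droplet single-cell RNA sequencing in rat (Rattus norvegicus) neural stem cells from a commercial supplier, which the labels place in E14.5 cortex of Sprague-Dawley animals. The vehicle culture received DMSO, and the other culture 30 µM ZD7288, a compound that blocks HCN channels, the pacemaker cation channels opened by hyperpolarisation. Both had 0.2% DMSO, complete medium with FGF2, which holds such cells undifferentiated, 48 h of exposure and a medium change at 24 h. The label of the treated sample spells the compound ZD2788, and the protocol and the series title spell it ZD7288. Each group was 1 culture and 1 library, so the treatment, the culture and the library cannot be told apart, and every difference below is one between 2 libraries, without a replicate check and with no test.

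Methionine is activated to S-adenosylmethionine and passes through homocysteine and cystathionine to cysteine, a route called transsulfuration. Cysteine, which cells also import as cystine, limits the making of glutathione, a tripeptide of glutamate, cysteine and glycine and the main small thiol of animal cells. Glutathione peroxidases use it to remove hydrogen peroxide and lipid peroxides, a reductase restores it at the cost of NADPH, and cytosolic breakdown returns its amino acids. Parts of this network are known targets of ATF4, the transcription factor of the amino acid response, and of NRF2, the transcription factor of the oxidative stress response.

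After removal of poor barcodes the vehicle library held 732 cells with 15611454 unique molecular identifiers (UMIs, which count captured transcripts) and the ZD7288 library 3135 cells with 73681950 UMIs, at medians of 17119 and 23001 UMIs per cell. Levels are UMIs summed over the cells of a library per 1000000 of its UMIs (CPM), and brackets hold exact 95% intervals that cover counting error only. Tags come from the 3′ end of a transcript, so levels were not divided by gene length, and they compare 1 gene between libraries rather than different genes. Of 11 neural stem cell markers none was at 0 in either library and 8 were measured, of which 1 was higher and 3 were lower in treated cells by the 1.5-fold rule described with the results. Sox2 stood at 230.0 and 247 CPM and Nes at 121 and 134 CPM in vehicle and treated cells, and the lower ones were Sox9 at 138 and 78.2 CPM, Notch1 at 47.3 and 19.7 CPM and Hes1 at 25.5 and 14.4 CPM. The higher one was Slc1a3, at 186 and 294 CPM. They also carried Olig1, a factor of the oligodendrocyte lineage, at 1687 and 896 CPM, while the 6 microglia markers summed to 0 and 2 UMIs. Of the stem cell markers Hes5 was near 0, at 4 and 3 UMIs. The sequence of 3 cell barcodes occurred in both libraries.

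The stretches upstream of 3 of these genes are shown because Cth and Chac1 had the widest differences between the libraries and Gclm is a textbook NRF2 target. RefSeq windows of GRCr8 were at hand for 9 of the 10 genes. They were searched on both strands, from 250 bases before the start to 50 after it, for TGATGNAA, the core of the C/EBP-ATF response element that ATF4 binds, and for TGACNNNGC, the core of the antioxidant response element that NRF2 binds. The first is present in 3.98% of all 33469 windows of that length and the second in 12.1%. Chac1 alone of the 9 genes held TGATGNAA, as TGATGCAA on the opposite strand from 167 bases before the start, and Gclm alone held TGACNNNGC, as TGACTAAGC on the opposite strand from 172 bases before the start. The window of Cth held neither pattern, and nor did that of Gclc, the other gene of the enzyme that Gclm belongs to, which is not shown. The 250 bases before each start are given 5′ to 3′ on the gene's strand, with the matches in capitals; they lie at chr3:126795881-126796130 (plus strand), chr2:249661067-249661316 (minus strand) and chr2:213031885-213032134 (plus strand). A match of these letters is a description of the window and no measure of binding.
Chac1: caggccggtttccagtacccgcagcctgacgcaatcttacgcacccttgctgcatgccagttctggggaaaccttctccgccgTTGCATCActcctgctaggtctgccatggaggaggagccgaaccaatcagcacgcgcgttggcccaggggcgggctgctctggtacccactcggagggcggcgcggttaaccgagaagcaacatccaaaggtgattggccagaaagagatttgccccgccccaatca
Cth: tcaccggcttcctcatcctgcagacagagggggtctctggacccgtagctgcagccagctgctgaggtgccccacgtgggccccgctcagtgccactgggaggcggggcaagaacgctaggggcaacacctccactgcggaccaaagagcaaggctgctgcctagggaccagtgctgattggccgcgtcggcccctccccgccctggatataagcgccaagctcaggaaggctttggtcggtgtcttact
Gclm: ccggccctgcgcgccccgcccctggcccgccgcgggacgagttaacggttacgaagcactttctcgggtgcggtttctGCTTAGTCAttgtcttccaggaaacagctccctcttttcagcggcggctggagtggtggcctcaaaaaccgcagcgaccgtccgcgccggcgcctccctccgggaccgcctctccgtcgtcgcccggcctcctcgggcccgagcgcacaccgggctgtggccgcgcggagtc

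Between the libraries, Cth, Chac1, Gclc and Gss were at least 1.5-fold higher in treated cells and none of the 10 genes was 1.5-fold lower. A gene was called measured at 20 CPM or more in the higher library, which held for 8 of the 10, all but Cbs and Gsr. Of all 4823 measured genes 10.1% were higher by the same rule and 5.2% lower, and the median log2 ratio was 0.09. Scaled by the median gene ratio, 338 measured genes were higher and 357 lower, against 485 and 251 by total UMIs, and the same 4 genes of the 10 were called. Cth, Chac1 and Gclc reached the floor in the ZD7288 library alone, so for these 3 a difference was a condition of being measured. The genes were also chosen with earlier results of these data known, and the count is a description.

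**Figure D1:**
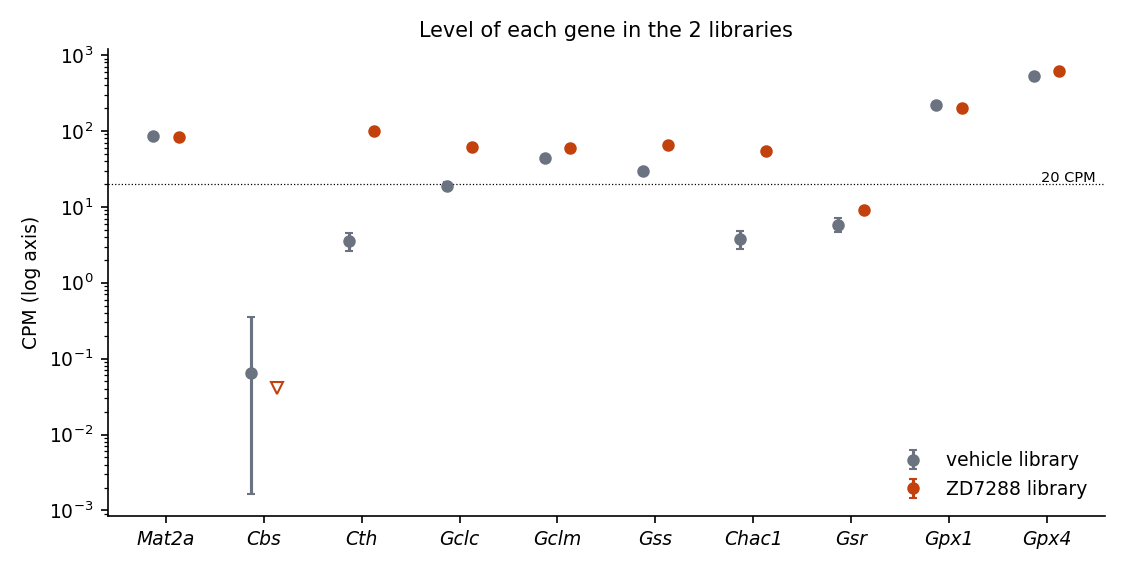
CPM of the 10 genes (log axis) in the vehicle library (grey) and the ZD7288 library (orange), with exact 95% Poisson intervals, hidden by the point where they are narrow; the open triangle is the level that 0 counts allow, and the dotted line is the 20 CPM floor. The widest gaps are those of Cth and Chac1, from 3.52 and 3.72 CPM to 100.2 and 55.2 CPM, while Mat2a, Gpx1 and Gpx4 lie close together.

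The RNA of the gene for the entry of methionine into the route did not differ by the 1.5-fold rule, and the flow of methionine itself was not measured. Mat2a (ENSRNOG00000013520), the catalytic subunit of the S-adenosylmethionine synthetase of cells outside the liver, stood at 85.9 CPM (81.4 to 90.6) without the drug and 83.8 CPM (81.7 to 85.9) with it, a ratio of 0.975 (0.919 to 1.04). The interval includes 1. Of 12 further genes of the methionine cycle 5 were measured, and none passed the rule. The one with the highest level, Amd1, which commits S-adenosylmethionine to polyamines, had a ratio of 0.799 (0.769 to 0.830). Mat1a, the liver form of the synthetase, was listed at 0 in both libraries.

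The transsulfuration genes proper differed from each other. Cth (ENSRNOG00000010658), cystathionine gamma-lyase, which releases cysteine from cystathionine, gave 55 UMIs without the drug and 7383 with it. These are levels of 3.52 CPM (2.65 to 4.59) and 100.2 CPM (97.9 to 103), a ratio of 28.4 (21.8 to 37.8). Only 3 of 4823 measured genes had a larger ratio. Cbs (ENSRNOG00000029528), cystathionine beta-synthase, which makes the cystathionine that CTH cleaves, gave 1 UMI without the drug and 0 with it. A count of 0 allows up to 3 counts, which is 0.0407 CPM in the ZD7288 library and 0.192 CPM in the vehicle library. Cbs lay under the limit of its own library in both, at 0.0641 CPM in the vehicle library, and no ratio is given. A 0 in this table is not a sure sign of absence, since genes that dividing or most animal cells use, such as Hells and the selenoprotein gene Selenow, were listed at 0 in both libraries too. So the product enzyme of the route was among the genes with the widest difference, and its partner upstream gave almost no tags in either culture.

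Cysteine also enters as cystine, and both measured genes of the cystine importer were higher in treated cells. The light chain Slc7a11 stood at 3.27 CPM without the drug and 60.5 CPM with it, and the heavy chain Slc3a2, which also serves other amino acid transporters, at 186 and 861 CPM. Slc7a11 was also the gene with the profile closest to that of Cth over 6 groups of cells (both libraries by 3 ranges of cell cycle UMIs), with a root mean square difference of 0.33 on the log2 scale after centring. Pck2 and Chac1 followed, at 0.39 and 0.49. Slc7a11, Pck2 and Cth were likewise closest to Chac1, at 0.32, 0.45 and 0.49. Slc38a3, Ubqln4 and Cherp were closest to Mat2a, at 0.042, 0.059 and 0.062, and Puf60, Kat5 and Rhbdf1 to Gclm, at 0.053, 0.055 and 0.055. Both libraries enter each profile, so these distances also hold the contrast described above. Around cysteine and sulfide, Got1, a transaminase, was 1.92-fold higher (1.75 to 2.11), and the other 4 of 5 measured genes did not pass the rule.

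Glutathione synthesis genes were higher in treated cells to unequal degrees. Gclc (ENSRNOG00000006302), the catalytic subunit of glutamate-cysteine ligase, which carries out the first and limiting step, stood at 19.0 CPM (16.9 to 21.3) without the drug and 61.2 CPM (59.4 to 63.0) with it, a ratio of 3.22 (2.86 to 3.63). Gss (ENSRNOG00000018964), glutathione synthetase, which adds glycine in the last step, stood at 30.0 CPM (27.4 to 32.9) and 64.7 CPM (62.9 to 66.6), a ratio of 2.15 (1.96 to 2.37). Gclm (ENSRNOG00000013409), the modifier subunit that raises the activity of the ligase, stood at 44.2 CPM (41.0 to 47.6) and 59.1 CPM (57.4 to 60.9). Its ratio of 1.34 (1.23 to 1.45) lies above 1 beyond counting error and below the 1.5-fold rule.

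The subunits of the ligase thus stood in another proportion. Per Gclm UMI there were 0.430 Gclc UMIs (0.374 to 0.494) in the vehicle library and 1.04 (0.993 to 1.08) in the ZD7288 library. Capture can differ between genes, so neither value is a ratio of molecules, but the difference between the values does not depend on how the libraries are scaled. Summed over Gclc, Gclm and Gss, the level was 93.3 CPM (88.5 to 98.2) without the drug and 185 CPM (182 to 188) with it, or 1.98-fold higher (1.88 to 2.10).

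The breakdown gene had a larger ratio than any synthesis gene. Chac1 (ENSRNOG00000014387), the gamma-glutamylcyclotransferase that cleaves cytosolic glutathione and the gene above with a TGATGCAA match, gave 58 UMIs without the drug and 4064 with it. These are 3.72 CPM (2.82 to 4.80) and 55.2 CPM (53.5 to 56.9), a ratio of 14.8 (11.5 to 19.6), and 6 measured genes had a larger one. With every cell thinned to 2000 UMIs, where 3 vehicle cells held a Chac1 UMI, the ratio was 24.1. Per Chac1 UMI the vehicle library held 5.12 Gclc UMIs (3.85 to 6.91) and 8.09 Gss UMIs (6.15 to 10.8), and the ZD7288 library 1.11 (1.06 to 1.16) and 1.17 (1.13 to 1.22). In ratio, the balance of Gclc and Gss with Chac1 was thus shifted toward Chac1, on its 58 vehicle UMIs, although synthesis genes were higher as well. In CPM the sum of the 3 genes Gclc, Gclm and Gss differed by more, 91.8 against 51.4 for Chac1 alone. None of the 3 singly differed by as many CPM as Chac1, and capture can differ between genes. Chac2, a relative of Chac1 with low constant activity, was below the floor, at 3.20 and 6.19 CPM, and is named after its values were seen. Of 3 further measured breakdown genes Ggct, which acts on gamma-glutamyl amino acids, was lower in treated cells, with a ratio of 0.613 (0.549 to 0.685), and the other 2 did not pass the rule.

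**Figure D2:**
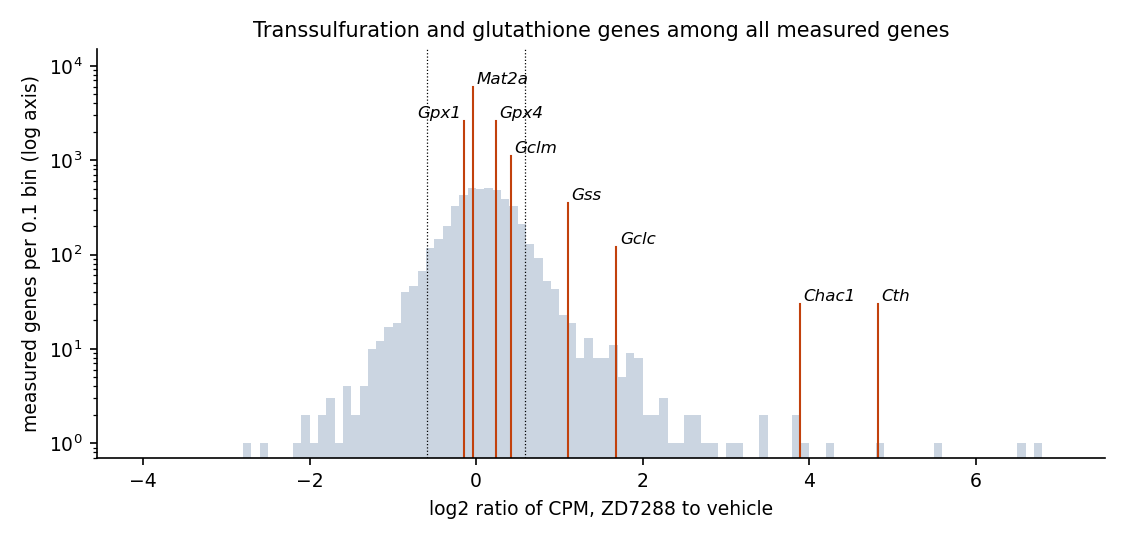
Histogram of the log2 ratio of CPM, ZD7288 to vehicle, over all 4823 measured genes (grey, 0.1 per bin, log axis), with the 8 measured genes of the 10 as orange lines whose height carries no value; dotted lines mark 1.5-fold. Cth at 4.83 and Chac1 at 3.89 lie in the far right tail, Gclc at 1.69 and Gss at 1.11 on its slope, and Gclm, Gpx4, Mat2a and Gpx1 within the bulk.

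Of the genes for reduction and use of glutathione, Gpx1 and Gpx4 differed little, and Gsr gave few tags. Gsr (ENSRNOG00000014915), glutathione reductase, was below the floor in both libraries, at 5.76 CPM (4.64 to 7.09) without the drug and 9.12 CPM (8.44 to 9.84) with it, a ratio of 1.58 (1.27 to 1.99) that is not counted among the calls. Gpx1 (ENSRNOG00000048812), the cytosolic peroxidase for hydrogen peroxide, stood at 222 CPM (215 to 230) and 201 CPM (198 to 205), a ratio of 0.906 (0.873 to 0.941). Gpx4 (ENSRNOG00000013604), which reduces lipid peroxides in membranes and guards against ferroptosis, stood at 525 CPM (514 to 537) and 622 CPM (616 to 627), a ratio of 1.18 (1.16 to 1.21). The peroxidases therefore differed in opposite directions by small amounts beyond counting error, and their sum by 1.10-fold (1.08 to 1.12). Both are selenoproteins, and none of 8 measured genes of selenium use passed the rule, with Selenoh, the highest, at a ratio of 0.789 (0.774 to 0.805). Genes of this family can have near-identical processed copies, and the sources used here do not say how the counting treated them, so the levels of Gpx1 and Gpx4 carry that reserve. Among further peroxidases Gpx3, the secreted form, was lower at 29.6 against 55.9 CPM, a ratio of 0.530 (0.490 to 0.574).

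In the wider network, 98 of 104 listed genes were matched and 54 measured, of which 9 were higher and 3 lower by the 1.5-fold rule, with a median log2 ratio of 0.15 beside 0.09 over all measured genes. The shares are 16.7% higher and 5.56% lower, beside 10.1% and 5.2% of all measured genes. Slc7a11, Gsta4 and Sesn2 reached the floor in the ZD7288 library alone, and Ggct and Gstk1 in the vehicle library alone. Genes that spend glutathione by conjugation went both ways. Gstp1 was 4.30-fold higher (4.18 to 4.43), Gsta4 1.60-fold higher (1.42 to 1.82) and the mitochondrial and peroxisomal transferase gene Gstk1 lower, with a ratio of 0.467 (0.414 to 0.528). Transferases form families of similar genes between which reads can be divided, so these values are uncertain. Of 10 measured genes in the list of thioredoxins, peroxiredoxins and their partners 3 were higher. They were the mitochondrial peroxiredoxin gene Prdx3 at 2.35-fold (2.25 to 2.45), Prdx1 at 1.66-fold (1.63 to 1.68) and Sesn2, which encodes a sestrin and neither of the enzymes that name the list, at 6.17-fold (5.50 to 6.95). Of 6 measured genes of NADPH supply, which feeds glutathione reductase, Me1 was higher at 2.30-fold (2.08 to 2.54). None of 7 glutaredoxin and glyoxalase genes passed the rule, with Glrx3, the highest, at a ratio of 1.25 (1.21 to 1.28), and neither did the 1 measured transport gene, Slc25a39, the mitochondrial glutathione importer, at 1.37 (1.31 to 1.43).

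**Figure D3:**
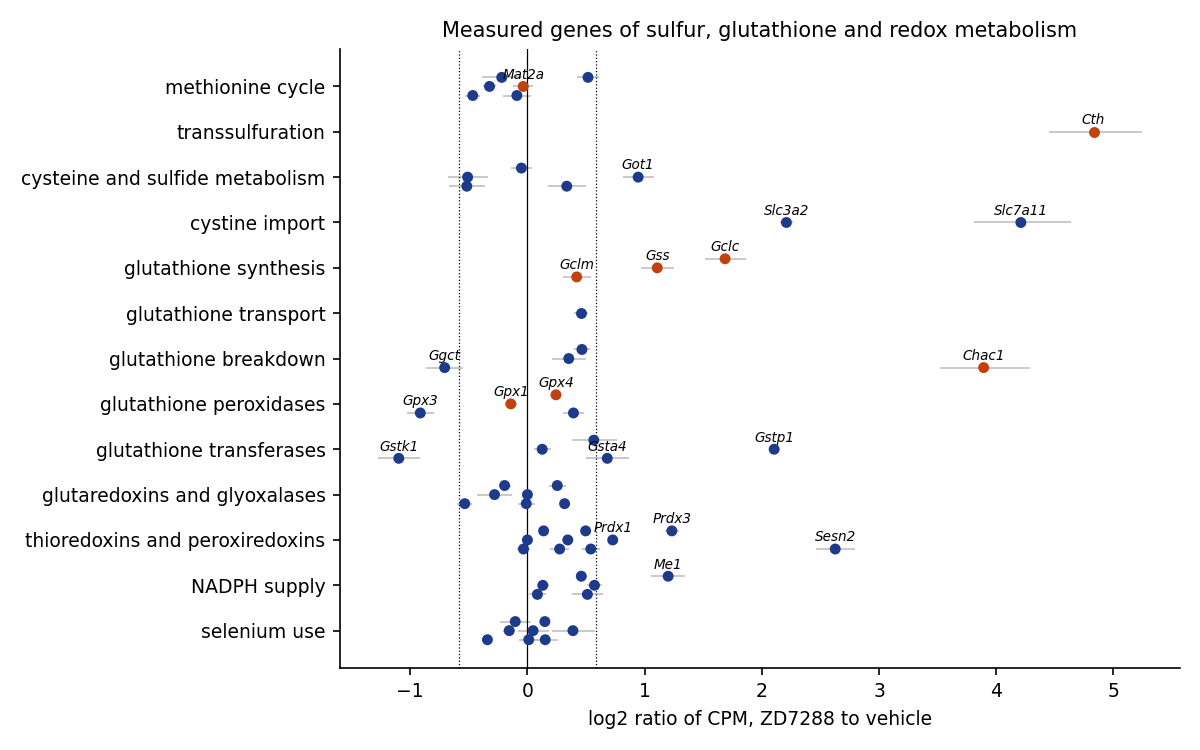
Log2 ratio of CPM, ZD7288 to vehicle, for the measured genes of each step, with exact 95% intervals; orange points are genes of the 10, blue points the wider list, names are given for the former and for genes past 1.5-fold (dotted lines). Points right of the right-hand line include Cth, Slc7a11, Slc3a2, Chac1, Gclc and Gss as well as genes of other steps such as Gstp1 and Sesn2, and those of the methionine cycle, glutaredoxins and selenium use between the lines.

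Counted per cell at equal depth, more treated cells held the genes that were higher. Every cell was thinned to 2000 UMIs, for which 8 cells without the drug and 179 with it were too shallow. A Cth UMI was then seen in 0.552% of 724 vehicle cells (0.151 to 1.41) and 17.3% of 2956 treated cells (16.0 to 18.7). For Chac1 the shares were 0.414% (0.0855 to 1.21) and 9.34% (8.31 to 10.4), and for Gclc 4.56% (3.16 to 6.34) and 11.1% (10.0 to 12.3). The intervals of these genes, and those of Gss and Gpx1 below, do not overlap between the libraries, with Gpx1 seen in fewer treated cells. How often this holds over all genes was not counted, so it is given as a description. Gss was seen in 6.35% (4.69 to 8.38) and 12.3% (11.2 to 13.6) of cells, while the intervals of Mat2a, at 13.3% (10.9 to 15.9) and 14.2% (12.9 to 15.5), and of Gclm, at 8.29% (6.38 to 10.5) and 11.2% (10.1 to 12.4), overlapped. Gsr was seen in 1.38% and 1.96% of cells. For Gpx1 the shares were 38.5% (35.0 to 42.2) and 32.9% (31.2 to 34.6), and for Gpx4 65.9% (62.3 to 69.3) and 69.7% (68.0 to 71.4). Cbs was seen in 0 of 724 and 0 of 2956 cells, and 3 counts set the limits on the share with a UMI at 0.414% and 0.101%.

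At the depth at which the libraries were sequenced the shares were larger, and treated cells were deeper. Unthinned, a Cth UMI was seen in 7.10% of vehicle and 64.5% of treated cells, Chac1 in 5.60% and 56.3%, Gclc in 31.1% and 60.2%, Gss in 43.9% and 68.5%, and Gclm in 53.7% and 66.6%. Mat2a was seen in 71.0% and 74.3%, Gsr in 11.7% and 18.8%, Gpx1 in 93.9% and 91.4%, and Gpx4 in 98.5% and 96.7%. Neither culture had an identified cell type expected to be without these genes, so no background share could be set beside these, and the part of free RNA was not tested.

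**Figure D4:**
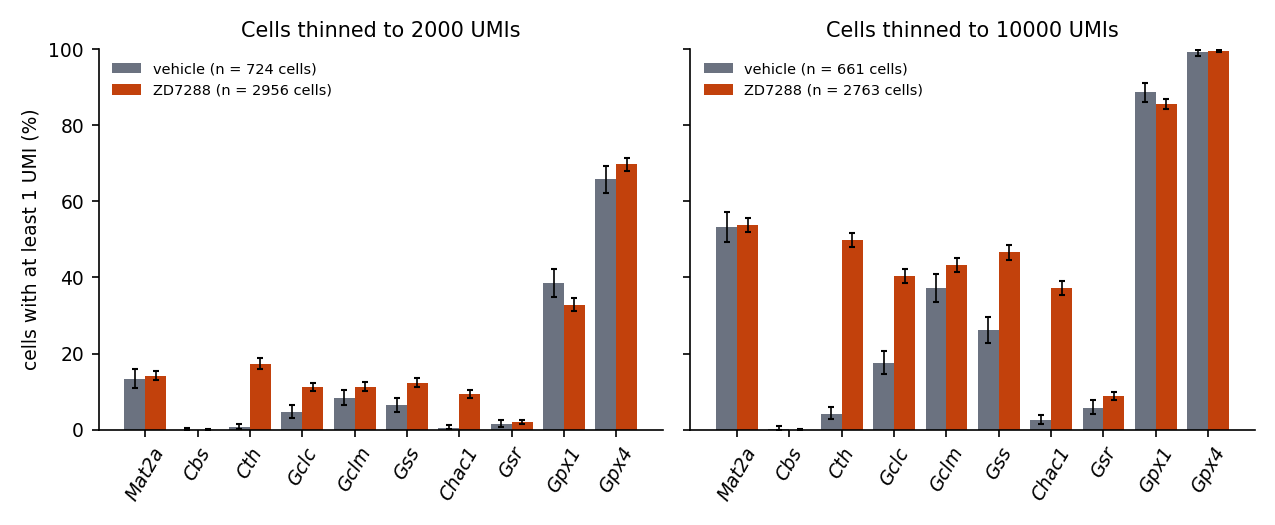
Share of cells with at least 1 UMI of each gene in vehicle (grey) and ZD7288 (orange) cells thinned to 2000 UMIs (left) or 10000 UMIs (right), with exact 95% binomial intervals. At both depths the bars of Cth and Chac1 are near 0 in vehicle cells and well above it in treated cells, while those of Mat2a and Gpx4 lie close together.

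The treated cells were not alike in Cth. Thinned to 10000 UMIs, 2763 treated cells had a mean of 0.990 Cth UMIs and a variance of 1.82 times the mean, where independent capture at an equal level in every cell gives about 1. A Cth UMI was seen in 49.8% of them, and 12.8% held 3 or more. The variance was 1.35 times the mean for Gclc and 1.26 for Chac1, but 1.08 for Gss, 1.01 for Gclm, 1.10 for Mat2a and 1.12 for Gpx1. It was 1.38 for Gpx4, which was not called higher and had a mean of 6.26 UMIs per cell. At the same relative unevenness this value grows with the mean, so it does not rank genes of unlike mean. Gss, although higher in the library as a whole, had a value near 1 on a mean of 0.656 UMIs, where moderate unevenness would add little. Whether Gss was spread evenly among treated cells is therefore not settled. In 661 vehicle cells the values of the same genes lay between 0.961 for Cth, on a mean of 0.0408 UMIs, and 1.18 for Gpx4. At the low mean of Cth unequal levels would not be visible.

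Treated cells with a Chac1 or a Gclc UMI held Cth more often than cells without one, and other pairs differed less. Of 1029 treated cells with a Chac1 UMI at 10000 UMIs, 58.9% (55.8 to 61.9) held Cth, and of 1734 cells without one 44.3% (42.0 to 46.7). Split by Gclc, Cth was seen in 58.1% (55.1 to 61.0) of cells with it and 44.1% (41.7 to 46.6) without it. Split by Gss, the shares were 50.8% (48.0 to 53.6) and 48.8% (46.3 to 51.4), and split by Gclm 51.2% (48.3 to 54.1) and 48.7% (46.2 to 51.2), with overlapping intervals. Chac1 was seen in 39.9% (37.1 to 42.9) of cells with Gclc and 35.4% (33.1 to 37.8) without it, again with intervals that overlap. Cells are not replicates and the differences are descriptions within 1 library. At this depth the share of cells with no UMI of Cth, Chac1, Gclc or Gss was 12.9% (11.7 to 14.2) with the drug and 57.2% (53.3 to 61.0) without it. All 4 were seen in 4.63% (3.88 to 5.48) of the former, and in 0 of 661 of the latter, which allows up to 0.454%. These 4 are the genes called higher above, so a difference between the libraries in both shares follows from the choice of genes.

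The genes were then followed across treated cells ordered by UMIs of 42 ATF4 list genes, from which the 10 genes and the wider network were left out. Cells thinned to 2000 UMIs were cut into 3 equal groups within the library, with 0 to 12, 12 to 18 and 18 to 39 list UMIs. These are ranges of a score and not cell types, and cells tied at a boundary were divided by barcode order. Cth stood at 46.5 CPM (43.9 to 49.3) in the lowest, 105 CPM (101 to 109) in the middle and 151 CPM (146 to 156) in the highest group, a span of 3.25-fold. Gclc, at 42.0, 64.5 and 78.2 CPM, spanned 1.86-fold and Chac1, at 38.7, 57.6 and 69.9 CPM, 1.81-fold. Gss was level, at 65.1, 64.2 and 65.1 CPM, Gclm stood at 56.6, 56.4 and 64.5 CPM, Mat2a at 79.1, 83.4 and 89.0 CPM, and Gpx1 went the other way, at 208, 207 and 189 CPM. Median depth was similar in the groups, at 23217, 23666 and 23811 UMIs per cell, and the median mitochondrial share was 5.37%, 4.71% and 4.28%. Even in the lowest group Cth was above the 3.52 CPM of the vehicle library.

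**Figure D5:**
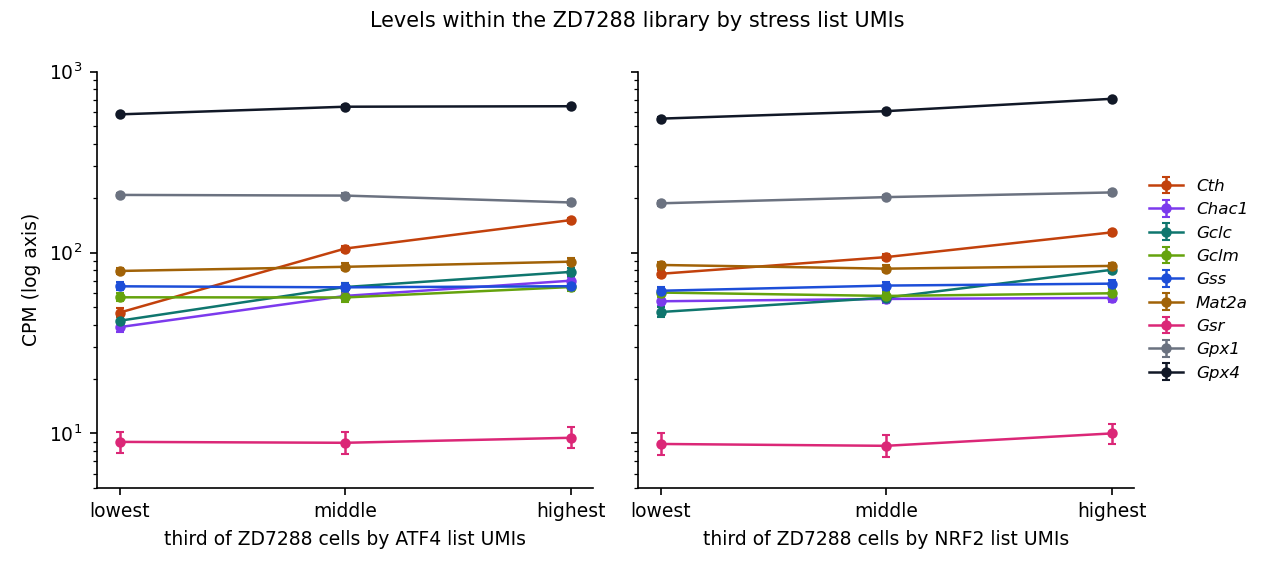
CPM (log axis) in 3 equal groups of ZD7288 cells ordered by UMIs of the ATF4 list (left) or the NRF2 list (right), with exact 95% Poisson intervals; both lists leave out the genes plotted. Cth has the steepest line on the left, from 46.5 to 151 CPM, Gclc and Chac1 follow there, Gclc and Cth climb on the right, and Gss and Gclm stay nearly flat in both panels.

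Ordered by the NRF2 list, of which 11 genes were left, the picture differed for Chac1. Of that list's UMIs 57.4% were Fth1 and 37.7% Ftl1, so the order is in effect one by ferritin, the iron store. From the lowest to the highest group Gclc went from 46.9 to 80.3 CPM and Cth from 76.3 to 129 CPM, spans of 1.71-fold and 1.69-fold. Chac1, at 53.8 and 56.1 CPM, and Gclm, at 60.1 and 59.5 CPM, were nearly level. Gpx4 went from 550.1 to 708 CPM. In the vehicle library the same order gave 20.2 and 18.3 CPM for Gclc. In vehicle cells ordered by the ATF4 list, Cth had 3.69 and 3.67 CPM in the lowest and highest groups, on 20 and 19 UMIs. Chac1 had 1.85 CPM (0.886 to 3.40) and 6.18 CPM (4.23 to 8.73) there, on 10 and 32 UMIs.

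The libraries were also compared within ranges of cell cycle RNA. At 2000 UMIs, cells with fewer than 10 UMIs over both phase lists numbered 96 in the vehicle and 726 in the ZD7288 library. From 10 UMIs, 111 vehicle and 451 treated cells had more UMIs of the S phase list than of the G2/M list, and 517 and 1779 did not. The ratio of Cth was 30.3 (14.7 to 75.5) in the first range, 25.1 (12.1 to 62.7) in the second and 26.6 (19.6 to 37.1) in the third, with intervals that overlap. The ratio of Gclc was 4.12 (2.73 to 6.53), 2.91 (2.06 to 4.25) and 3.21 (2.81 to 3.67). That of Gss was 2.78 (2.05 to 3.86), 1.28 (1.02 to 1.63) and 2.24 (2.00 to 2.51), so its difference was smallest in cells with more S phase UMIs, where the vehicle level was 46.0 CPM against 27.1 and 27.9 CPM in the other ranges. Chac1 rested on 3 vehicle UMIs in each of the first 2 ranges. The ratio of Mat2a was 1.29 (1.05 to 1.60), 1.14 (0.955 to 1.38) and 0.936 (0.876 to 1.00), none of them past the 1.5-fold rule. Within the treated library Cth stood at 134 CPM in cells with little cell cycle RNA and at 94.0 and 89.7 CPM in the others.

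Some measures of other kinds moved with these differences. The median mitochondrial share was 5.84% in vehicle and 4.70% in treated cells, and cells under 1% mitochondrial UMIs made up 0.956% (7 cells) and 6.38% (200 cells). Without those cells and cells below 2000 UMIs the same 4 genes were called. The 8 markers of pericytes, fibroblasts and mesenchymal cells, none of which was measured, summed to 0.705 CPM without the drug and 16.1 CPM with it, and 6 of them (Col1a2, Col3a1, Pdgfrb, Dcn, Lum and Acta2) were at 0 in the vehicle library. In the 723 vehicle and 2811 treated cells without a UMI of these markers the log2 ratio of Cth was 4.79 (4.83 with them), of Chac1 3.89 (3.89), of Gclc 1.65 (1.69) and of Gss 1.10 (1.11). Markers of oligodendrocyte precursors summed to 2269.9 CPM without the drug and 1234 CPM with it, with 3 of 6 measured and all 3 lower, none of the 6 being at 0. Their part in the differences was not tested.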

How the data were processed

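The library kit was Chromium 3′, version 2, per the labels' protocols. The deposited matrix holds raw UMI counts of 25399 genes in 4691 barcodes, which the authors made with Cell Ranger, per the submitters' processing notes; version 3.0.2 stands in the header of the matrix. The build, annotation and rule for calling barcodes: not given in the sources used here. Per the deposited barcode file, the number after the hyphen gives the library, matched to the number that opens each sample title; no other source gives this match, and every direction rests on it. The gene symbols and the barcodes are names and carry no score or other value by the authors.

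Cells were kept with at least 1000 UMIs, 500 genes and at most 10% mitochondrial UMIs. Counts were summed per library and scaled to CPM. Ratios have exact Clopper-Pearson intervals, CPM exact Poisson intervals and shares exact binomial intervals, checked on simulated data with Python 3.11.15, numpy 2.4.6 and scipy 1.17.1. No test was made, each group being 1 library. Cells were thinned without replacement, and doublets were scored against simulated pairs, marked at 0.8% of a library per 1000 cells and kept except in 1 other setting. Other settings covered scaling, the cell filter, depth, cell weight, doublets, mesenchymal marker cells, the floor and the fold. The named genes are the 10 genes and, in each step of the wider list, up to 4 past 1.5-fold, or the 1 with the highest CPM. Cbs was not measured and has no list of alike genes; Mat2a and Gclm were compared likewise. The genes, lists and rules were chosen with earlier results of these data known. UMI ratios within a library, co-detection and variance were added after the data were seen.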

Additional observations from a re-analysis of the deposited data

Results flagged for a closer look

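Barcodes that the cell filter left out, 110 in the vehicle and 714 in the ZD7288 library, are listed because Cth, Gclc, Gss and Chac1 passed a rule in them. It asked for 20 CPM in the higher library, a ratio of at least 1.5 and an interval above 1. This signal lies outside the cells compared above, and the share of all genes that pass in such barcodes was not counted. Of the others Gpx4 had a ratio of 1.35 (1.07 to 1.72), Mat2a 1.64 (0.980 to 2.93) and Gsr 0.728 (0.203 to 3.95). The median of these barcodes was 1801 and 1832 UMIs and their median mitochondrial share 39.1% and 26.2%. Mitochondrial UMIs are part of the totals, so a lower share in treated barcodes raises the ratio of every other gene. The ratios were not corrected for this, and Gss passed most narrowly, at 1.79 (1.01 to 3.44). In these barcodes Cth stood at 68.4 CPM (57.6 to 80.6) in treated and 6.17 CPM (0.748 to 22.3) in vehicle barcodes, on 142 and 2 UMIs. Gclc stood at 51.1 CPM (41.8 to 61.8) and 12.3 CPM (3.36 to 31.6). Gss stood at 71.8 CPM (60.7 to 84.3) and 40.1 CPM (21.4 to 68.6), and Chac1 at 37.1 CPM (29.3 to 46.4) and 6.17 CPM (0.748 to 22.3). The CPM of Cth and Chac1 in these treated barcodes lay below the 100.2 and 55.2 CPM of the kept treated cells. The interval of Gss included the 64.7 CPM of the kept treated cells. Those cells had a median mitochondrial share of 4.70%, and the higher share in left-out barcodes lowers the CPM of every other gene. Whether such barcodes hold damaged cells or free RNA was not tested.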

How the results depend on the processing

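Cth, Chac1, Gclc and Gss were at least 1.5-fold higher, and none of the 10 genes 1.5-fold lower, in all 13 other settings, and at a 5 CPM floor Gsr joined them as the fifth gene. The log2 ratio of Cth ranged from 4.74 to 5.24 and that of Chac1, 3.89 over whole libraries, from 3.71 to 4.59, the latter with cells thinned to 2000 UMIs, where 3 vehicle cells held a UMI. That of Gclc ranged from 1.34 to 1.69, of Gss from 0.94 to 1.11 and of Gclm from 0.33 to 0.51. Mat2a ranged from -0.13 to 0.08 and has no firm sign. The log2 ratio of summed Gclc, Gclm and Gss, 0.99, was 0.90 by the median gene ratio, 0.87 in cells of 10000 to 30000 UMIs and 0.90 in thinned cells. That of summed Gpx1 and Gpx4, 0.14, was 0.049, 0.065 and 0.078 by the median gene ratio, by totals without mitochondrial and ribosomal protein genes, and in thinned cells. Over all genes, 810 were higher and 612 lower at a 5 CPM floor, 272 and 83 at 50 CPM, and 139 and 61 at 2-fold. By totals without mitochondrial and ribosomal protein genes 427 were lower and 434 higher; this setting both lets more genes reach the floor and shifts every log2 ratio by -0.07, and their parts were not told apart. Scaling by the median gene ratio shifts every log2 ratio by -0.09. Genes with few vehicle UMIs, Cth with 55 and Chac1 with 58, have the widest intervals. No paired analysis was possible because each group is 1 library and no test was made.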
